A study of Homo sapiens with 6 samples.

Results

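Serum response factor (SRF), its 2 cofactors MRTFA and MRTFB, and 7 contractile cytoskeleton genes that are textbook targets of this complex (ACTA2, TAGLN, CNN1, CNN2, MYL9, TPM1 and TPM2) were followed in U87 cells, an established human glioblastoma cell line, after knockdown of the arginine methyltransferase PRMT6. The 10 genes were chosen by name as the transcription factor, its cofactors and its contractile targets, with earlier results of these data known. They are 10 of the 60612 genes in the deposited table. All 10 passed the filter on low counts and were among the 18106 genes tested. The RNA came from U87 cells that carried a scramble shRNA (NC, 3 libraries) or an shRNA against PRMT6 (shPRMT6, 3 libraries), and the only comparison the samples allow is shPRMT6 against NC. Both groups were infected with lentivirus in the presence of polybrene and grown in DMEM with fetal bovine serum, and stable cells were selected with puromycin. Which of the listed PRMT6 shRNAs was sequenced is not named, and whether all 3 shPRMT6 libraries carried the same shRNA is not stated.

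SRF binds a short DNA element called the CArG box and takes its cofactors from competing families. MRTFA and MRTFB are held in the cytoplasm by monomeric G-actin. When actin is assembled into filaments, they are released, enter the nucleus and switch on genes of the contractile cytoskeleton with SRF. The ternary complex factors ELK1, ELK3 and ELK4 instead tie SRF to ERK signalling and immediate early genes. In smooth muscle, myofibroblasts and motile tumour cells the MRTF-SRF targets build the actin filaments, tropomyosin, calponin and myosin light chains that produce contraction. Much of this control acts through localisation of the cofactors rather than through their RNA, which is what was measured here.

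The targeted gene was checked first. In CPM (counts scaled to library size with TMM factors), and in the order of the replicate numbers as in all values that follow, PRMT6 RNA was 9.34, 7.97 and 7.19 CPM in NC and 3.57, 4.58 and 5.24 CPM in shPRMT6. All 3 shPRMT6 libraries lay under all 3 NC libraries, and PRMT6 fell to 54.6% of NC (log2 fold change -0.87, SE 0.187, adjusted p = 0.0225). This adjusted p, like every other given for counts, comes from the quasi-likelihood test of edgeR, corrected over all tested genes by the Benjamini-Hochberg method. Without NC replicate 1, shPRMT6 replicate 1 or shPRMT6 replicate 2 the edgeR adjusted p of PRMT6 was 0.0613, 0.0588 and 0.0713. The libraries held 56388161 to 75887696 counts, with TMM factors from 0.992 to 1.01. Of the 18106 genes tested, 3362 (18.6%) passed an adjusted p of 0.05, with 9.51% higher and 9.06% lower in shPRMT6. The median log2 fold change of all tested genes was -0.01. Of markers of astroglia and glioma, VIM, CD44 and NES were present in all libraries, the astroglial genes S100B and AQP4 had 0 counts in all 6, and GFAP, the intermediate filament of astrocytes, had 11 to 60 counts.

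SRF is itself known to hold CArG boxes in its promoter, so the promoters of the 10 genes were searched for this element. A CArG box is a run of 6 A or T bases between CC and GG and reads the same on both strands. Windows from 250 bases before to 50 bases after each annotated start were taken from RefSeq on GRCh38.p14, where 8 of the 10 genes had an entry (TAGLN and MYL9 had none) with 16 windows in all. Of these windows 2 held the element, those of SRF and CNN2, while 1.29% of all 35116 promoter windows and 1.60% of the 27305 genes with a window held it. Windows of MRTFA, MRTFB, ACTA2, CNN1, TPM1 and TPM2 held no match to these letters. The search took exact matches only, so a stretch that departs from the pattern by a base was not counted. An ACTA2 window holds such stretches (ccctatatgg and ccttgtttgg), as does the SRF window (ctttatatgg). How many other windows hold them was not counted, so a window without a match may still hold a near match. The windows of SRF, with 2 boxes that begin 30 and 10 bases before the start, of CNN2, with 1 box that begins 89 bases before it, and of CNN1, the gene of the group with the largest fold change, are shown with the boxes in capitals.
SRF, chr6:43171019-43171318, plus strand: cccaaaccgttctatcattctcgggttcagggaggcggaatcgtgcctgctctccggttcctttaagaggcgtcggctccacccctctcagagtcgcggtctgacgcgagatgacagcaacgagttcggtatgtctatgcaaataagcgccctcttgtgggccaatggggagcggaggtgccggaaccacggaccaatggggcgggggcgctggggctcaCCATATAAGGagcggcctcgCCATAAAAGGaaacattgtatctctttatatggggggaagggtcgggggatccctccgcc
CNN2, chr19:1026358-1026657, plus strand: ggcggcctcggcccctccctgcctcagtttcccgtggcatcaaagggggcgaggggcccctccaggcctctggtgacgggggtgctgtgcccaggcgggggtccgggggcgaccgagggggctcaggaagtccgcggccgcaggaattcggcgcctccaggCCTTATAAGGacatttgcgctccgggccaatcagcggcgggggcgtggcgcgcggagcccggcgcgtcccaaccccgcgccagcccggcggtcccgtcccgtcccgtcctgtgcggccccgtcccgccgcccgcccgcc
CNN1, chr19:11538601-11538900, plus strand: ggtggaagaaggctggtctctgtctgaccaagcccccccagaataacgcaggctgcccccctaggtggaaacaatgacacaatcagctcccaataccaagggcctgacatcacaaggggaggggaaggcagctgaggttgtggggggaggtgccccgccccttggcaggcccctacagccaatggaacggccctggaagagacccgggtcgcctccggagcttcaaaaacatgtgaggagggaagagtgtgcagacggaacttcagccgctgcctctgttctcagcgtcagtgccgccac
A match is a description of the letters in the window. The part of these boxes in the changes of the 10 genes was not tested, and MYL9 had no window to search.

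Of the 10 genes, 2 rose in shPRMT6 cells and none fell at an adjusted p under 0.05. MYL9, the regulatory light chain of smooth muscle and nonmuscle myosin, rose 2.06-fold, and CNN1, the calponin that marks smooth muscle, rose 3.26-fold. These 2 of 10 higher genes (20%) stand beside 9.51% of all genes higher, and the 0 lower genes beside 9.06% lower. DESeq2 and limma called 0 of the 10 lower as well, and none of them was lower at an edgeR p under 0.05 before adjustment, where MRTFB came nearest. In either direction the 20% of the group called is close to the 18.6% of all tested genes. By the threshold in the study's methods, an absolute log2 fold change above 1 with p under 0.05 and here read as unadjusted, the same 2 genes passed, beside 5.92% of all tested genes. The log2 fold change was above 0 for 7 of the 10 genes and below 0 for 3, with a median of 0.16. The libraries of the groups did not overlap for MYL9, CNN1 and MRTFA, all 3 higher in shPRMT6, beside 20.3% of all tested genes without overlap and higher, and no gene of the group was without overlap and lower, beside 19.9%. Since whole cultures were sequenced, a change in the number of cells that make an RNA and a change in RNA per cell cannot be told apart.

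**Figure D1:**
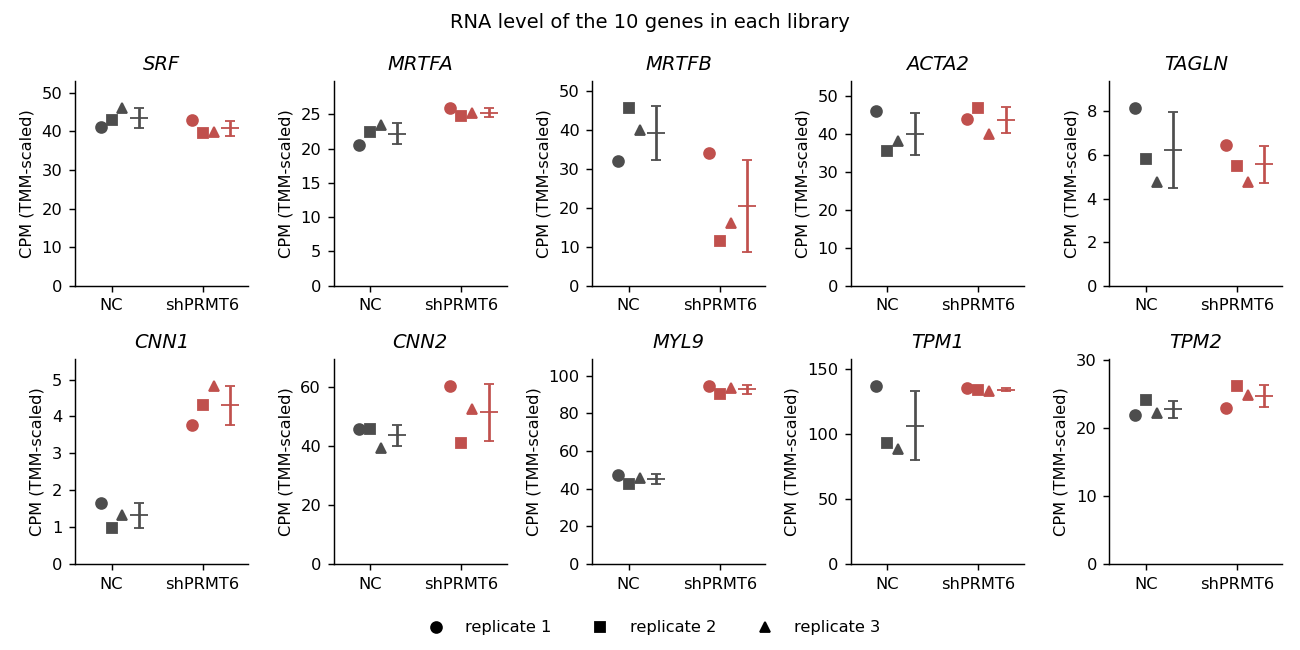
RNA level of the 10 genes in each library. Each panel shows CPM after TMM scaling on an axis from 0, with a symbol per replicate and the mean ± SD of 3 libraries beside them, NC in grey and shPRMT6 in red. MYL9 at 42.4 to 47.2 CPM in NC and 90.2 to 94.6 CPM in shPRMT6 and CNN1 at 0.986 to 1.66 and 3.77 to 4.83 CPM separate widely, and MRTFB in shPRMT6 spreads from 11.4 to 34.0 CPM.

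MYL9 (ENSG00000101335, chromosome 20 of GRCh38 from 36541484 to 36551447, plus strand) encodes the light chain whose phosphorylation switches on myosin II. MYL9 RNA was 47.2, 42.4 and 45.8 CPM in NC and 94.6, 90.2 and 93.8 CPM in shPRMT6. The gap between the groups was far larger than the spread within them, with an SD of 2.50 CPM in NC and 2.34 CPM in shPRMT6 over 3 libraries each. The log2 fold change was 1.04 (SE 0.0673, edgeR adjusted p = 0.000523), with a 95% interval from 0.88 to 1.20. It passed in all 16 alternatives of edgeR, DESeq2 and limma, with values from 1.00 to 1.07. The authors' FPKM values, which are scaled to a length per gene, were 14.0, 12.7 and 13.9 in NC and 28.5, 27.2 and 28.3 in shPRMT6. No other annotated gene overlaps its exons, and none of its 75-base stretches occurs in another transcript of GENCODE 29.

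CNN1 (ENSG00000130176, chromosome 19 from 11538717 to 11550323, plus strand) encodes calponin 1, an actin-binding protein that restrains actomyosin. CNN1 RNA was 1.66, 0.986 and 1.31 CPM in NC and 3.77, 4.32 and 4.83 CPM in shPRMT6. These values rest on few reads, 93, 75 and 82 counts in NC and 240, 266 and 327 in shPRMT6, and the groups did not overlap. The log2 fold change was 1.71 (SE 0.239, edgeR adjusted p = 0.00539), with a 95% interval from 1.13 to 2.28. It passed in all 14 alternatives that tested it, and it lay under the filter of the other 2, the limma fits restricted to a mean of 1 FPKM or more. On the log2(FPKM + 1) scale, where changes of low genes are compressed, it was 0.72. Like MYL9, CNN1 has no overlapping gene and no shared stretch.

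SRF (ENSG00000112658, chromosome 6 from 43171299 to 43181507, plus strand) was 41.2, 43.1 and 46.1 CPM in NC and 42.9, 39.6 and 39.8 CPM in shPRMT6. The groups overlapped, and the log2 fold change was -0.09 (SE 0.0773, edgeR adjusted p = 0.465). Its 95% interval ran from -0.28 to 0.09, so SRF RNA was measured to within a narrow range. MRTFA (ENSG00000196588, chromosome 22 from 40410281 to 40636702, minus strand), the first of the actin-regulated cofactors, was 20.6, 22.5 and 23.5 CPM in NC and 26.0, 24.7 and 25.2 CPM in shPRMT6. All shPRMT6 libraries were above all NC libraries, but the log2 fold change of 0.19 (SE 0.0854) did not pass (edgeR adjusted p = 0.184), with a 95% interval from -0.02 to 0.39.

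MRTFB (ENSG00000186260, chromosome 16 from 14071321 to 14266773, plus strand), the second cofactor of this family, had the largest spread of the 10 genes within shPRMT6. MRTFB RNA was 32.0, 45.7 and 40.1 CPM in NC and 34.0, 11.4 and 16.1 CPM in shPRMT6. In shPRMT6 replicate 1 it lay within the NC range, and in replicates 2 and 3 under it, a 2.97-fold span within the group. The log2 fold change was -0.94 (SE 0.392, edgeR adjusted p = 0.154), with a 95% interval from -1.88 to 0.002. Without shPRMT6 replicate 1 it was -1.51 and passed (edgeR adjusted p = 0.0183), and it did not pass in any of the other 15 alternatives. That replicate had the least PRMT6 RNA of the 3, 3.57 CPM against 4.58 and 5.24 CPM. A link between the levels of PRMT6 and MRTFB was not tested.

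The balance of the pair was read as shares, although neither gene passed the test. MRTFA made up 58.1%, 51.5% and 55.9% of the summed FPKM of the pair in NC and 62.3%, 82.4% and 77.1% in shPRMT6. The shares did not overlap, with means of 55.2% ± 3.38 and 74.0% ± 10.4 (SD, n = 3), and the two-sided exact permutation p was 0.1, the smallest that 3 libraries against 3 allow. Which cofactor was the larger depended on the scale. On raw counts MRTFA made up 39.2%, 33.0% and 37.0% of the pair in NC and 43.3%, 68.4% and 60.9% in shPRMT6, again without overlap. The summed FPKM of the pair overlapped between the groups, at 3.84 to 4.78 in NC and 3.30 to 4.59 in shPRMT6.

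ACTA2 (ENSG00000107796, chromosome 10 from 88935074 to 88991339, minus strand) encodes smooth muscle alpha-actin, the classical marker of myofibroblasts. ACTA2 RNA was 46.0, 35.4 and 38.0 CPM in NC and 43.7, 46.8 and 40.0 CPM in shPRMT6. The groups overlapped, and the log2 fold change was 0.13 (SE 0.119, edgeR adjusted p = 0.515), with a 95% interval from -0.16 to 0.41. In GENCODE 29, 30.1% of its exon bases lie over ACTA2-AS1 and FAS on the opposite strand, and the sources used here do not say whether counting used strand. FAS was at 17.4 to 29 CPM in NC and 24.8 to 30.2 CPM in shPRMT6, and ACTA2-AS1 was under 0.3 CPM throughout.

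TAGLN (ENSG00000149591, chromosome 11 from 117199321 to 117204782, plus strand) encodes transgelin, which bundles actin filaments in smooth muscle. TAGLN RNA was 8.17, 5.80 and 4.77 CPM in NC and 6.47, 5.48 and 4.77 CPM in shPRMT6. The values overlapped over nearly their whole range, and the log2 fold change was -0.16 (SE 0.231, edgeR adjusted p = 0.680), with a wide 95% interval from -0.72 to 0.39. Without NC replicate 1 its sign turned, to 0.073 (edgeR adjusted p = 0.847). PCSK7 on the opposite strand lies over 11.4% of the exon bases of TAGLN. PCSK7 was at 24.1 to 26.4 CPM in NC and 30.2 to 38.0 CPM in shPRMT6, above TAGLN in every library. Its part in the TAGLN counts was not tested, and the use of strand in counting is not given.

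The other calponin of the group, CNN2 (ENSG00000064666, chromosome 19 from 1026581 to 1039068, plus strand), which is widely expressed outside muscle, was 45.7, 45.5 and 39.3 CPM in NC and 60.2, 41.1 and 52.6 CPM in shPRMT6. The groups overlapped through shPRMT6 replicate 2, and the log2 fold change was 0.24 (SE 0.148, edgeR adjusted p = 0.322), with a 95% interval from -0.12 to 0.59.

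TPM1 (ENSG00000140416, chromosome 15 from 63042632 to 63071915, plus strand) and TPM2 (ENSG00000198467, chromosome 9 from 35681992 to 35690121, minus strand) encode tropomyosins, the coiled coils that lie along actin filaments. TPM1 RNA was 136.9, 93.1 and 88.7 CPM in NC and 135.2, 134.1 and 133.1 CPM in shPRMT6. The shPRMT6 libraries agreed closely, and NC replicate 1 lay above them while the other NC libraries lay below. The log2 fold change was 0.34 (SE 0.165, edgeR adjusted p = 0.211) with all libraries, and 0.56 (edgeR adjusted p = 0.00593) without NC replicate 1, where TPM1 joined MYL9 and CNN1 among the genes that passed. Opposite-strand genes lie over 21.4% of its exon bases. TPM2 was 21.8, 24.1 and 22.2 CPM in NC and 22.9, 26.1 and 24.8 CPM in shPRMT6, with overlap and a log2 fold change of 0.12 (SE 0.0900, edgeR adjusted p = 0.420).

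NC replicate 1 was the highest of the 3 NC libraries for 6 of the 7 contractile genes, all but TPM2. It was the lowest for SRF, MRTFA and MRTFB. Its lead was small for CNN2 (45.7 against 45.5 CPM in NC replicate 2) and MYL9 (47.2 against 45.8 CPM in NC replicate 3). These ranks were noticed after the values were seen, and ranks over all genes were not counted. Leaving NC replicate 1 out turned the sign of TAGLN, brought TPM1 past the threshold and moved ACTA2 from 0.13 to 0.24 (edgeR adjusted p = 0.170). MYL9 and CNN1 stayed at 1.07 and 1.90 without it. Among the shPRMT6 libraries, replicate 1 was the highest for SRF, MRTFA and MRTFB, and for 4 of the 7 contractile genes.

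**Figure D2:**
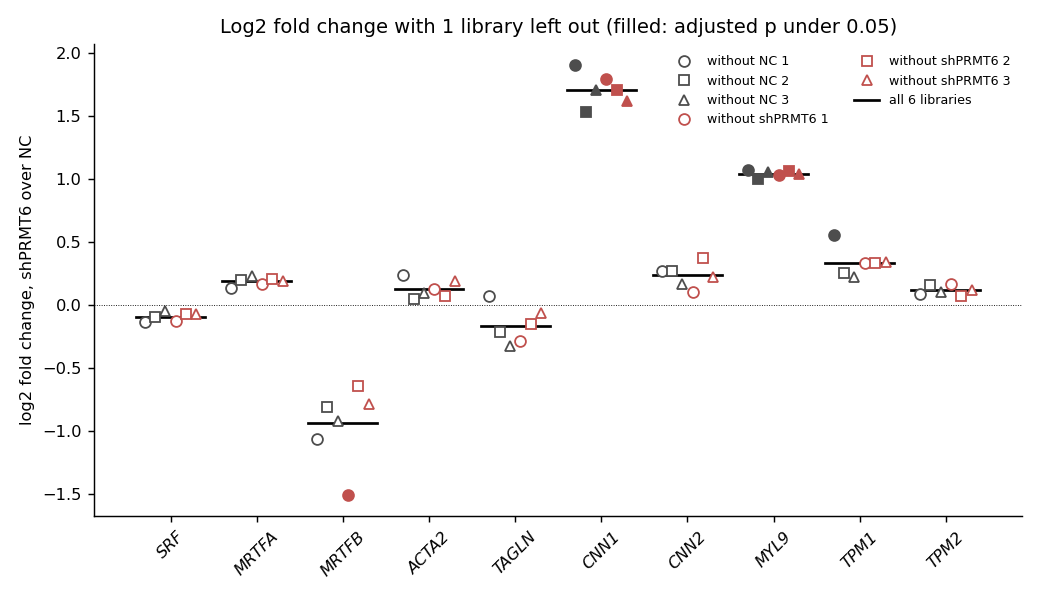
Log2 fold change of each gene with 1 library left out, shPRMT6 over NC. Symbols show the 6 fits (grey for an NC and red for a shPRMT6 library left out, filled where the adjusted p was under 0.05) and black bars the fit with all 6 libraries. MYL9 stays between 1.00 and 1.07 and CNN1 between 1.53 and 1.90, MRTFB ranges from -1.51 to -0.65, and TAGLN crosses 0.

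Levels between genes were compared on the FPKM scale, so their order depends on the length given to each gene. TPM1 has 12876 annotated exon bases and MYL9 2821. Without length scaling TPM1 had the highest mean of the 10 genes in NC, 106.2 CPM against 45.1 CPM for MYL9. In NC the 10 genes ran from 13.5 FPKM for MYL9 down to 0.386 FPKM for CNN1, a 35.0-fold span. MYL9, ACTA2 (11.2), CNN2 (10.0), SRF (8.65), TPM1 (6.47) and TPM2 (5.98) formed a series in which each gene overlapped its next neighbour over the 3 libraries. MRTFA (2.43) and MRTFB (1.99) lay below TPM2 and overlapped each other, and TAGLN (0.796) and CNN1 were each below the gene before. In shPRMT6 MYL9 stood at 28.0 FPKM, above ACTA2 (12.4) without overlap, while ACTA2 and CNN2 (11.9) still overlapped. CNN1 (1.28) had moved above the means of MRTFB (1.05) and TAGLN (0.714), and overlapped MRTFB but lay above TAGLN without overlap, while MRTFB and TAGLN overlapped. CNN1 and TAGLN, both typical of differentiated smooth muscle, were at the bottom of the order in NC, and of them CNN1 passed the test.

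Each contractile gene was then set against its paralogs, which encode other forms of the same proteins, nonmuscle ones for the most part. ACTA2 made up 0.926% ± 0.0778 of the summed FPKM of 6 actins in NC and 0.917% ± 0.0446 in shPRMT6 (SD, n = 3), with overlap. The actins were almost wholly ACTB and ACTG1, the cytoplasmic beta- and gamma-actins, and the balance of that pair shifted. ACTB was 38.6%, 39.7% and 38.2% in NC and 48.3%, 49.9% and 49.8% in shPRMT6, without overlap. ACTB RNA rose by 0.49 on the log2 scale (SE 0.0528, edgeR adjusted p = 0.00227), in all 16 alternatives past the threshold, while ACTG1 was at -0.13 (edgeR adjusted p = 0.180). Of the muscle actins, ACTA1 had 0 counts in all libraries, ACTC1 had 4 counts in NC replicate 1 and none elsewhere, and ACTG2 had 4 to 29 counts (log2 fold change 1.02, SE 0.658, edgeR adjusted p = 0.338).

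MYL9 was a small part of the regulatory light chains throughout. It made up 3.29%, 3.57% and 3.59% of the summed FPKM of MYL9, MYL12A and MYL12B in NC and 6.39%, 6.08% and 6.10% in shPRMT6, with no overlap (two-sided exact permutation p = 0.1, the smallest 3 against 3 allow). The nonmuscle light chains MYL12A (log2 fold change 0.23) and MYL12B (0.13), and the essential light chain MYL6 (0.16), did not pass (edgeR adjusted p = 0.269, 0.241 and 0.159). Among calponins the low member also gained. CNN1 was 1.90% ± 0.433 of the calponins in NC and 5.19% ± 1.01 in shPRMT6 (SD, n = 3), without overlap, beside CNN2 and CNN3, which each held 43.8% to 53.0%. CNN3 was at 0.26 (SE 0.0882, edgeR adjusted p = 0.0895).

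TAGLN was 0.211% of the transgelins in NC and 0.174% in shPRMT6, and TAGLN2, the form found outside muscle, held 96.1% to 98.0%. TAGLN3, the neuronal form, rose by 0.94 on the log2 scale (SE 0.104, edgeR adjusted p = 0.00245), from 13.5 to 14.7 CPM in NC to 25.2 to 30.2 CPM in shPRMT6, while TAGLN2 was at 0.09 (edgeR adjusted p = 0.329). Among tropomyosins, TPM4 held 52.0% to 86.5% of the summed FPKM and was the least stable between replicates. TPM4 was 940.0, 445.1 and 1091 CPM in NC and 1778, 2879 and 960.9 CPM in shPRMT6, with overlap (log2 fold change 1.18, SE 0.465, edgeR adjusted p = 0.133). The shares of TPM1, 7.93% in NC and 5.87% in shPRMT6, and of TPM2, 7.56% and 4.64%, overlapped between the groups, and TPM3 was at -0.10 (edgeR adjusted p = 0.509). Of the 13 paralogs, 11 were tested, 2 rose (ACTB and TAGLN3) and 0 fell (edgeR, also 0 at an unadjusted p under 0.05 and 0 by DESeq2), with a median of 0.23. These 18.2% called stand beside 18.6% of all tested genes.

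**Figure D3:**
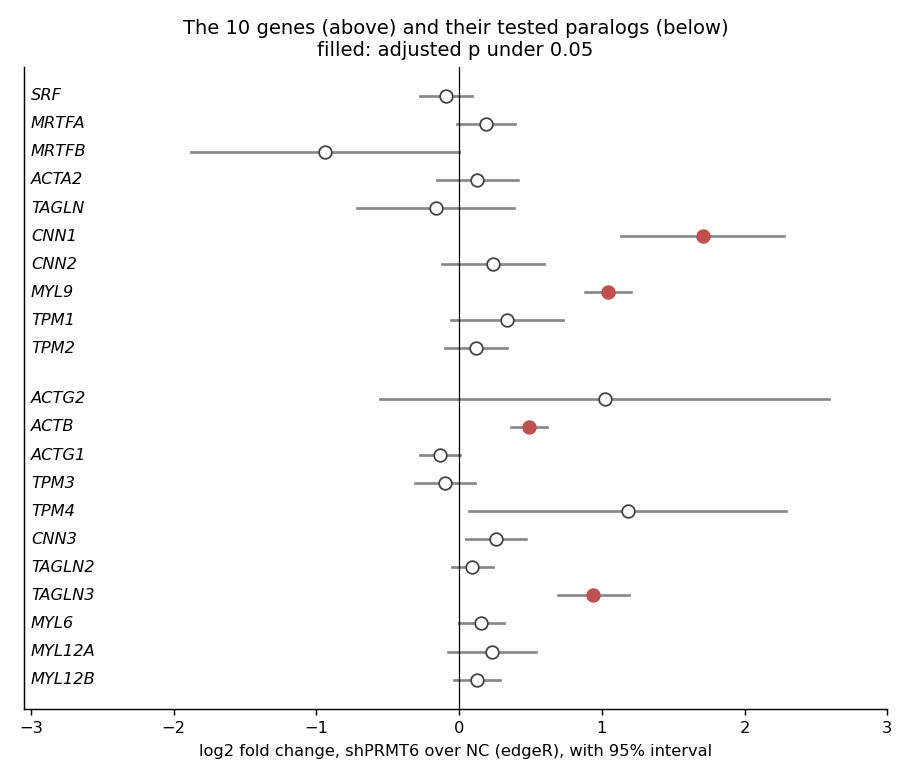
Log2 fold change, shPRMT6 over NC, of the 10 genes above and of their 11 tested paralogs below, each with its 95% interval. Filled points passed an adjusted p of 0.05. MYL9 at 1.04, CNN1 at 1.71, ACTB at 0.49 and TAGLN3 at 0.94 are filled, and the widest intervals belong to ACTG2, TPM4 and MRTFB.

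**Figure D4:**
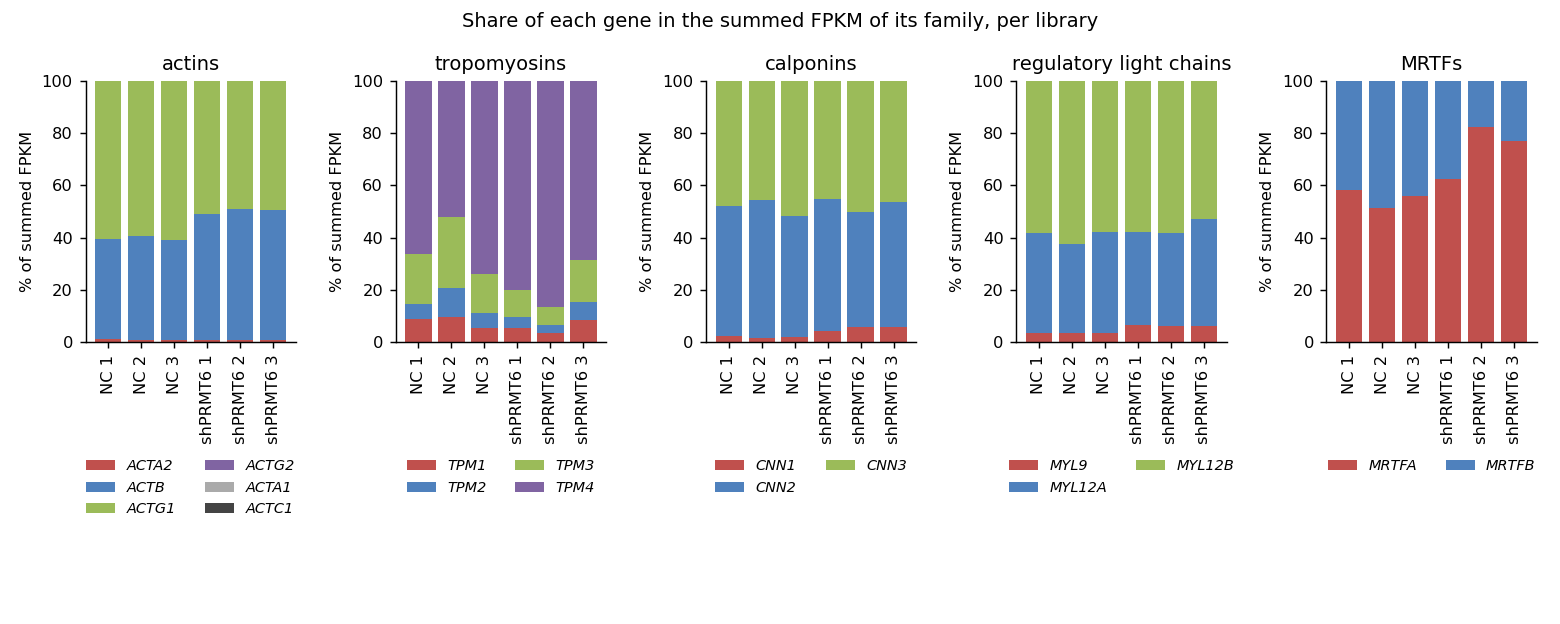
Share of each gene in the summed FPKM of its family, in percent from 0 to 100, for 5 families in the 3 NC and 3 shPRMT6 libraries. ACTB takes 38.2% to 39.7% of the actins in NC and 48.3% to 49.9% in shPRMT6, MYL9 and CNN1 widen as thin bands, TPM4 varies between replicates, and MRTFA takes a larger share of its pair in shPRMT6.

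Other known targets of MRTF and SRF did not move one way. Of 21 such genes, 20 were tested, 3 rose and 2 fell, with a median log2 fold change of -0.05. Among all tested genes 9.51% were higher and 9.06% lower. In either direction 25% of the tested targets were called, beside 18.6% of all tested genes. ACTB, which is also a paralog, rose as given above, as did FILIP1L, a filamin A interacting protein, by 0.60 (edgeR adjusted p = 0.0280) and CSRP1, a LIM protein of actin bundles, by 0.33 (0.0137). VCL, which encodes vinculin of focal adhesions, fell by 0.35 on the log2 scale (edgeR adjusted p = 0.00813), and FLNA, the actin crosslinker filamin A, fell by 0.23 (0.0494). The most abundant that did not pass were ACTG1, the myosin heavy chain MYH9 (-0.08) and talin TLN1 (0.005). VCL passed with every library left out. FILIP1L did not pass without NC replicate 3 or any 1 of the shPRMT6 libraries (edgeR adjusted p = 0.0618 to 0.0939), CSRP1 without shPRMT6 replicate 1 or 2 (0.0591 and 0.0557), and FLNA without any 1 library other than NC replicate 1 (0.0942 to 0.156).

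The ternary complex arm of SRF gave 1 higher gene of 12 tested and 0 lower by edgeR, beside 9.51% higher and 9.06% lower among all tested genes, with a median of -0.07. NR4A1, an orphan nuclear receptor of the early response, was lower at an unadjusted p of 0.0162 (log2 fold change -1.05, edgeR adjusted p = 0.0723) and was the 1 gene that DESeq2 called lower. The gene that rose was EGR1, an immediate early transcription factor, at 32.9, 34.0 and 32.3 CPM in NC and 39.6, 40.8 and 39.0 CPM in shPRMT6 (log2 fold change 0.27, edgeR adjusted p = 0.0377). It did not pass without NC replicate 1 or 3 or any 1 of the shPRMT6 libraries (edgeR adjusted p = 0.0779 to 0.134). The abundant MCL1, JUNB and IER2 were at 0.03, -0.18 and 0.06 (edgeR adjusted p = 0.789, 0.226 and 0.920).

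**Figure D5:**
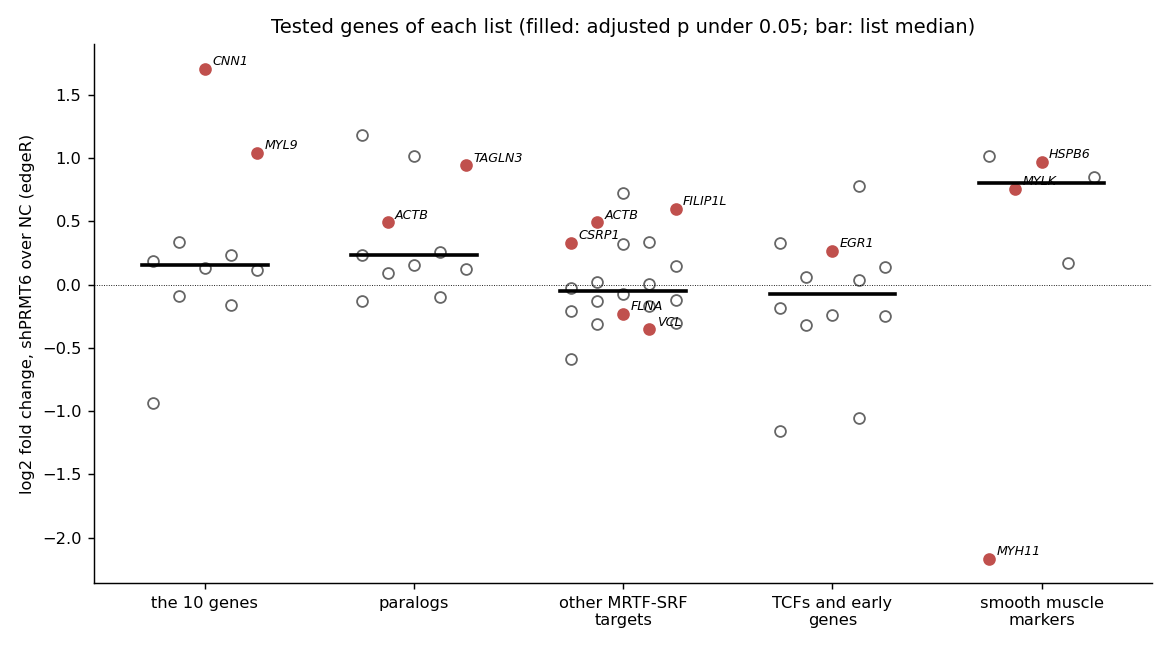
Log2 fold change, shPRMT6 over NC, of every tested gene of the 10 and of 4 related lists. Filled points passed an adjusted p of 0.05 and are named, and black bars are the list medians, from -0.07 for the ternary complex factors and early genes to 0.81 for the 6 tested smooth muscle markers.

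Since MYL9 and CNN1 mark smooth muscle, the other markers of that tissue were read beside them. Of 12 smooth muscle markers 6 were tested, 2 rose and 1 fell, beside 9.51% of all tested genes higher and 9.06% lower. MYLK, the kinase that phosphorylates MYL9, rose from 41.7, 52.4 and 44.7 CPM in NC to 75.6, 84.9 and 74.5 CPM in shPRMT6 (log2 fold change 0.76, SE 0.106, edgeR adjusted p = 0.00527). HSPB6, a small heat shock protein of muscle, rose from 20.9, 19.5 and 16.9 CPM to 36.0, 38.2 and 38.2 CPM (log2 fold change 0.97, SE 0.101, edgeR adjusted p = 0.00207). Both passed with every library left out. MYH11, the smooth muscle myosin heavy chain and the most specific marker of the list, had only 24, 36 and 27 counts in NC and 4, 5 and 10 in shPRMT6 (log2 fold change -2.17, edgeR adjusted p = 0.0322). It did not pass in any of the 6 fits without 1 library (edgeR adjusted p = 0.0528 to 0.113).

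MYOCD, which encodes the muscle-restricted SRF cofactor myocardin, had 4 counts in shPRMT6 replicate 1 and 0 in the other libraries, and PLN, KCNMB1 and CASQ2 had 0 in all 6. The summed FPKM of the 12 smooth muscle markers was 24.3 to 27.4 in NC and 38.2 to 38.9 in shPRMT6, nearly all of it from HSPB6, MYLK and SMTN, the last of which did not pass (log2 fold change 0.17, edgeR adjusted p = 0.122). ACTG2 and SYNPO2, the other tested markers, were at 1.02 and 0.85 on few counts and did not pass (edgeR adjusted p = 0.338 and 0.237).

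Markers of other cell types did not all move one way, though all 3 tested endothelial ones had a log2 fold change above 0. The summed FPKM of 9 mural and fibroblast markers was 90.8 to 103.5 in NC and 99.8 to 101.4 in shPRMT6, with RGS5 (0.93), NOTCH3 (0.62) and LUM (0.67) higher, CSPG4 (-0.27) lower and 5 of 9 not past the threshold (44.4% called, beside 18.6% of all tested genes), among them COL1A1 (0.07), MCAM (0.25) and PDGFRB (-0.31), all as log2 fold changes. The 5 endothelial markers summed to 1.49 to 1.94 FPKM in NC and 2.58 to 2.76 FPKM in shPRMT6, with TEK higher (0.60, 1 of 3 tested), PECAM1 (0.70) and VWF (1.97) not past the threshold, and CDH5 and CLDN5 under 10 counts in every library. The 5 immune markers summed to 58.0 to 99.7 and 56.4 to 123.6 FPKM, nearly all from CD68, with AIF1 and CD3E at 0 in all. The 8 astroglial and glioma markers summed to 1232 to 1417 and 1218 to 1344 FPKM, with none past the threshold (VIM -0.11, CD44 -0.12 and NES 0.15). RGS5, NOTCH3, LUM, CSPG4 and TEK each missed the threshold in 4 to 6 of the 6 fits without 1 library (edgeR adjusted p up to 0.118). The part of these markers in the rise of MYL9 and CNN1 was not tested.

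An shRNA can also lower RNAs whose 3′ UTR pairs with bases 2 to 8 of its antisense strand, so the longest annotated 3′ UTR of each gene was searched for such sites of the 3 listed PRMT6 shRNAs. The 2 antisense strands with a site in any of the 10 genes are shown, with bases 2 to 8 in capitals.
shPRMT6 #2, antisense: aAGATGCTcagaatgccggtg
shPRMT6 #3, antisense: aTCTCTCCtgaaacgtccgtg
Of the 10 genes, MRTFB holds a site of shPRMT6 #2, as do 15.5% of 19210 genes with a 3′ UTR. CNN1 and CNN2 hold a site of shPRMT6 #3, as do 20.3%, and no gene of the group holds a site of shPRMT6 #1, which 13.5% hold. Which shRNA the libraries carry is not named, and the part of these sites in the values of MRTFB, CNN1 and CNN2 was not tested.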

How the data were processed

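The data were 6 RNA libraries of U87 cells, 3 NC and 3 shPRMT6. The groups come from the labels, and the methods call the replicates independent. The authors deposited raw counts per gene. Beside them stand the authors' FPKM values, which divide by a length per gene and by library size and give genes with 0 counts as 1e-04. The submitters' processing notes name HISAT2, HTSeq 0.13.5 and GRCh38. The library kit was NEBNext Ultra RNA, and the use of strand in counting is not given in the sources used here.

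Symbols were matched to 60401 of 60612 identifiers. The test was the quasi-likelihood F test of edgeR 4.0.16 in R 4.3.3, after TMM scaling and filterByExpr, with Benjamini-Hochberg adjustment over the 18106 genes left. Errors are SD over 3 libraries, and 95% intervals come from the edgeR SE. Library sizes were 56388161 to 75887696 counts. Values of 4 counts were held by 1240 to 1399 genes per library against 398 to 421 at 3 and 223 to 269 at 5, so a fragment may weigh more than 1 count and low counts are less precise than they look. Alternatives were DESeq2 1.42.0, no scaling or upper quartile factors, other filters, a replicate block, limma 3.58.1 on log2(FPKM + 1) and log2(FPKM + 0.1), and each library left out. Counts divided by 4 were added after the data were seen. Shares of FPKM within families were compared by two-sided exact permutation tests.

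Gene positions, exon overlaps, shared stretches of 75 bases and 3′ UTRs came from GENCODE 29, and promoters from RefSeq, with Python 3.11.15, NumPy 2.4.6 and pandas 2.3.3. Overlapping genes were read by exon bases. The fits were tested on simulated data. The 10 genes and all lists were chosen with earlier results of these data known. Named genes were the 10, PRMT6, all paralogs and, from each other list, up to 4 genes in each direction with the smallest p and up to 3 of the most abundant that did not pass. The proteome data of the study were not analysed here, and 1 further gene list is not reported here.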

Additional observations from a re-analysis of the deposited data

How the results depend on the processing

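MYL9 passed the threshold in all 16 alternatives and CNN1 in all 14 that tested it. In both limma fits restricted to a mean of 1 FPKM or more, 1 of the 10 genes was higher, because CNN1 lay under that filter. With 1 library left out, 2 to 3 of the 10 were higher and 0 to 1 lower: TPM1 passed without NC replicate 1 and MRTFB without shPRMT6 replicate 1. TAGLN, at -0.16 with all libraries, ranged from -0.33 to 0.073 and turned sign without NC replicate 1, and the cause was not tested. All genes past the threshold numbered 3362, and 1073 with limma on unfiltered log2(FPKM + 1), 1072 by the fold and unadjusted p of the methods, and 1755 to 3183 with 1 library left out (fewest without shPRMT6 replicate 2). Fewer libraries enter those fits. Same-numbered libraries did not pair: their deviations from the group means correlated at -0.02, -0.02 and -0.03, and no library correlated best with its own number. A replicate block gave 1858 genes and the same 2 of the 10. PRMT6 missed the threshold in 5 of 16 alternatives, among them the block (adjusted p = 0.0803) and limma on unfiltered log2(FPKM + 1) (0.158). On raw counts in place of FPKM, the share of MYL9 differed by 3.25 percentage points (2.70 on FPKM) and that of TAGLN by -0.10 (-0.04). Over all alternatives, other MRTF-SRF targets gave 0 to 5 higher and 0 to 4 lower genes, the ternary complex arm 0 to 1 and 0 to 1, and smooth muscle markers 0 to 2 and 0 to 1. Paralogs gave 2 higher in all except the fold threshold, with 1, and 0 lower. DESeq2 called 4026 genes. CNN1 rests on 75 to 327 counts per library.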
